A study of Mus musculus with 2 samples.

Results

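The proteasome genes of KPR- and KPRrestored mouse lung cancer cells are described here as the 50 of 23183 gene symbols in which Psm is followed by a letter from a to g and a number. The names alone decided which genes belong to the set, but the naming rule and the lists below were chosen with earlier results of these data known. The KPR- cells are a line that was immortalized from the lung tumor of a KPRL/F-TAM(-) mouse, in which Ad-Cre had switched on an oncogenic K-Ras allele and the Tomato reporter and had removed p53 and the floxed Runx3 allele, while a Frt-Stop-Frt cassette kept the other Runx3 allele off. In KPRrestored cells, 4-hydroxytamoxifen (4-OHT, an active form of tamoxifen) had activated the FlpERT2 recombinase, which removes that cassette. The records give the genotypes as RUNX3 -/- and RUNX3 -/+, the times as 0 h and 16 h, and 1 μM 4-OHT for both libraries, although the study describes 4-OHT as the treatment that makes KPRrestored cells from KPR- cells.

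The proteasome is the main protease of the cytosol and nucleus. Proteins tagged with ubiquitin are bound, unfolded and fed by a regulatory cap, the 19S particle, into a barrel, the 20S core, whose outer rings of alpha subunits guard the entrance and whose inner rings of beta subunits cut the chain. Cells exposed to interferon swap the cutting subunits for the immunoproteasome forms, other activators such as PA28 and PA200 can take the place of the cap, and dedicated chaperones help to put both particles together.

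Each condition is 1 library of poly(A)-selected RNA, so no difference between them has a replicate check and no p-value was computed. Levels are FPKM, the fragments of a gene scaled to transcript length and to the depth of the library, and differences are log2(FPKM + 0.005) in KPRrestored minus KPR-. The steps of low FPKM values gave depths of about 21800000 fragments for KPR- and 22400000 for KPRrestored, and the 95% intervals below are exact Clopper-Pearson limits on fragments estimated from these depths, which cover counting error only. Runx3 itself had 0.348 and 0.349 FPKM, which leaves the labels unchecked by the targeted gene, and each direction below is that of the library labelled KPRrestored. The epithelial keratin genes Krt8 and Krt18 stood at 1711 and 1931 FPKM in KPR-, whereas the lung markers Sftpc, Sftpb, Sftpa1 and Scgb1a1 were listed at 0 in both libraries. The mesenchymal gene Vim stood at 1777 FPKM in KPR-. Of the 11 markers listed for lung epithelium, the 6 that averaged 1 FPKM or more were Epcam, Cdh1, Krt7, Krt8, Krt18 and Krt19. The lung marker Nkx2-1 had 0.0444 FPKM in KPR- and 0.0216 FPKM in KPRrestored. Of the 6 mesenchymal markers 5 averaged 1 FPKM or more. In bulk RNA, a change in the share of cells that use a gene and a change in RNA per cell cannot be told apart. The libraries differ in hours as well as in genotype, so Runx3 restoration, time in culture and exposure to 4-OHT cannot be told apart either.

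A gene is called expressed below where its FPKM averaged 1 or more, and abundant where it averaged 50 or more. Of the 50 proteasome genes 45 were expressed, and the 31 of them that encode subunits of the 20S core and the 19S particle were all abundant. The levels of the 45 genes lay between 12.3 and 250 FPKM in KPR-, with a median of 114, and between 8.40 and 260 FPKM in KPRrestored, with a median of 118. The 5 genes under this level were Psma8, Psmb8, Psmb9, Psmb11 and Psme2b. One of the 45, Psmc3ip, shares only the symbol: it encodes a cofactor of homologous recombination and had 17.2 and 15.1 FPKM.

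Differences were small. Psmd8 was the only one of the 45 genes that was higher in KPRrestored by 0.5 or more on the log2 scale, where 12.1% of the 11231 expressed genes were. Psmb10 was the only one that was lower by as much, where 9.29% of expressed genes were. In shares, this is 2.22% of the proteasome genes in each direction. The median difference of the 45 genes was 0.11, beside 0.0086 for all genes tested, and 34 of them had a difference above 0, beside 51% of all genes. The counting interval lay above 0 for 26 of the genes and below 0 for 9, beside 34.3% and 33% of all genes with an interval. An interval is narrower where a gene has more fragments. Fragments were estimated from the longest transcript, so intervals of genes that also have shorter ones may be too narrow. Psma3, counted below 0, had about 7372 and 7108 fragments, or 1817 and 1752 by its shortest coding transcript. Of the 45 genes 33 were abundant, beside 1795 of the 11231 expressed genes, so these interval counts are not directly comparable. At a threshold of 0.25, 9 proteasome genes were higher and 4 lower, beside 26.2% and 23.7% of expressed genes. When the median difference of genes of like transcript length was taken away, 25 of the 45 genes lay above 0 and their median was 0.019. With both libraries scaled to the same upper quartile, the median was 0.067.

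**Figure D1:**
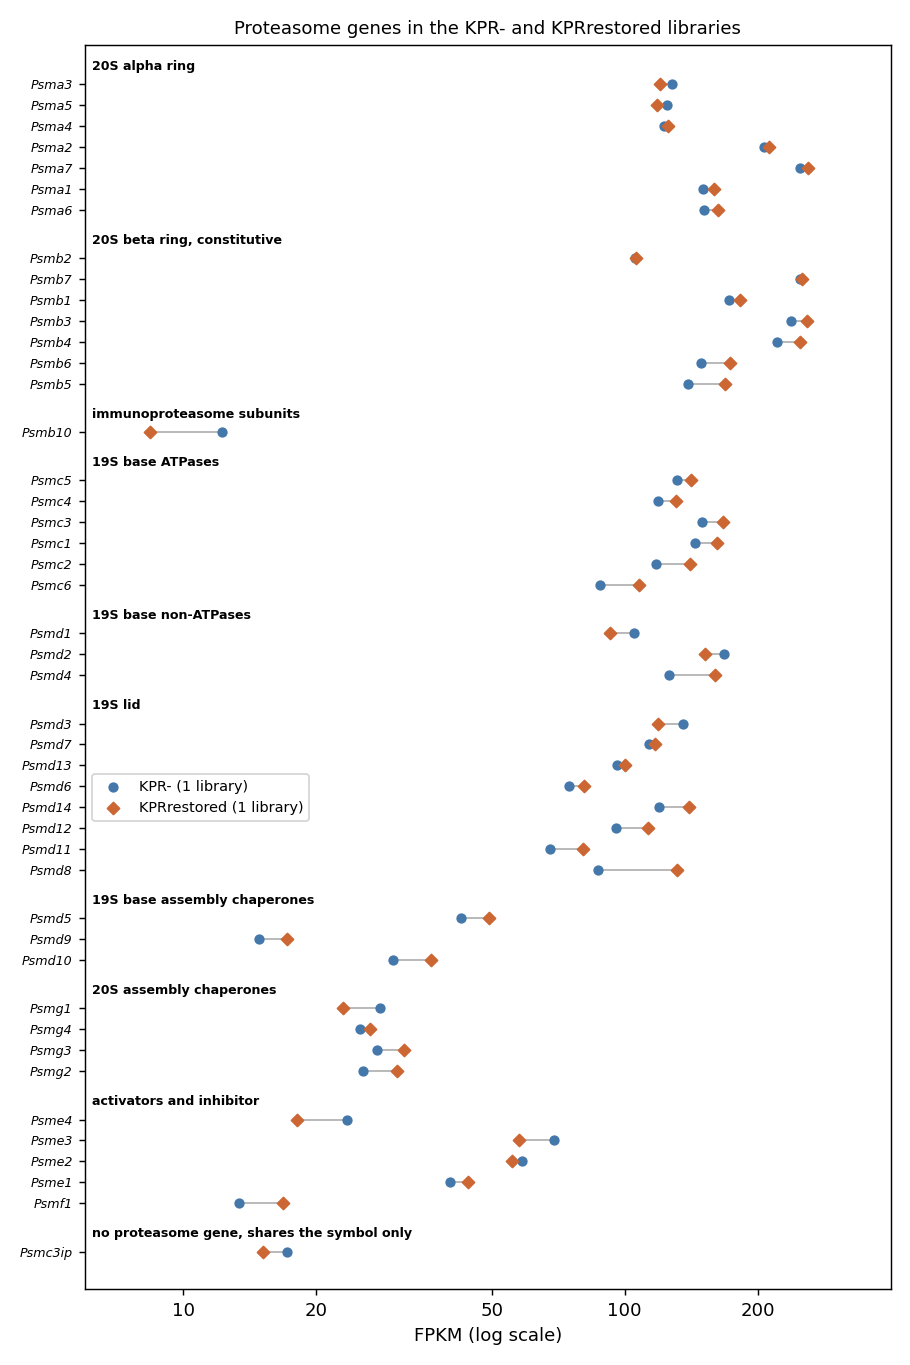
FPKM on a log scale of the 45 expressed proteasome genes, by role, as a circle for the KPR- library and a diamond for the KPRrestored library. The subunits of the 20S core and the 19S particle sit between 67.7 and 260 FPKM, to the right of the assembly chaperones, Psmb10 and all activators but Psme3, and most diamonds lie close to their circle.

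The alpha ring, which forms the gate of the 20S core, differed least. Its 7 genes, Psma1 to Psma7, had differences from -0.092 to 0.11 with a median of 0.039, and their summed level was 1134 FPKM in KPR- and 1158 FPKM in KPRrestored. Psma7 was the most abundant, with 250 FPKM in KPR- and 260 FPKM in KPRrestored. Psma6 stood at the upper end of the ring, with 151 and 163 FPKM. Psma3 and Psma5 were the only alpha genes below 0: Psma3 had 128 and 120 FPKM, and Psma5 had 125 and 118 FPKM. Psma2 went from 206 to 212 FPKM, Psma1 from 151 to 160 FPKM and Psma4 from 123 to 125 FPKM, and the interval of Psma4, from -0.053 to 0.10, held 0.

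The 7 constitutive beta genes, Psmb1 to Psmb7, all had a difference above 0, where 51% of expressed genes did. Their differences ran from 0.0099 to 0.28 with a median of 0.12. The largest values belonged to catalytic subunits. Psmb5, which carries the chymotrypsin-like activity, had 139 FPKM in KPR- and 169 FPKM in KPRrestored, a difference of 0.28 with an interval of 0.19 to 0.36. Psmb6, which carries the caspase-like activity, had 149 and 173 FPKM, a difference of 0.22 with an interval of 0.13 to 0.31. Psmb7, which carries the trypsin-like activity, did not share this: it had 249 and 253 FPKM, a difference of 0.020 with an interval of -0.035 to 0.076. Among the non-catalytic beta genes, Psmb4 went from 221 to 250 FPKM and Psmb3 from 238 to 258 FPKM. Psmb1 had 172 and 183 FPKM, and Psmb2, at 105 and 106 FPKM, was the lowest of the ring. Over the whole 20S core the median difference was 0.071, and the summed level was 2408 FPKM in KPR- and 2549 FPKM in KPRrestored. With the transcript length trend taken away, the median of the 14 core genes was -0.0037, and at the same upper quartile it was 0.029.

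The immunoproteasome forms of the 3 catalytic subunits were absent or scarce in both libraries. Psmb9, the counterpart of Psmb6, was listed at 0 in both, where 3 fragments would give 0.120 FPKM in KPR- and 0.117 FPKM in KPRrestored, which places it at least 1234-fold lower than Psmb6 in KPR- and at least 1475-fold lower in KPRrestored. Psmb8, the counterpart of Psmb5, had 0.0900 FPKM in KPR-, about 3 fragments, and was listed at 0 in KPRrestored, so no fold is given between the libraries. It was at least 1787-fold lower than Psmb5 in KPRrestored. Only Psmb10, the counterpart of Psmb7, was above 1 FPKM.

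Psmb10 lies on chromosome 8 of GRCm38 from 105935735 to 105938444 (minus strand), with no exon overlap with another gene and no near copy among annotated transcripts. It had 12.3 FPKM in KPR- and 8.40 FPKM in KPRrestored, from about 294 and 207 fragments. The difference was -0.55, with an interval of -0.81 to -0.28, the lowest of the 45 proteasome genes. Of the summed FPKM of Psmb10 and Psmb7, Psmb10 made up 4.69% in KPR- and 3.22% in KPRrestored, a change of their ratio of -0.57 on the log2 scale with an interval of -0.84 to -0.30. On the log2(FPKM + 1) scale no proteasome gene was lower by 0.5 or more. Markers of immune cells, which use the immunoproteasome without induction, were at or near 0: the 8 genes, among them Ptprc and Cd74, summed to 0.0859 FPKM in KPR- and 0.0529 FPKM in KPRrestored, and 5 of them were listed at 0 in both.

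**Figure D2:**
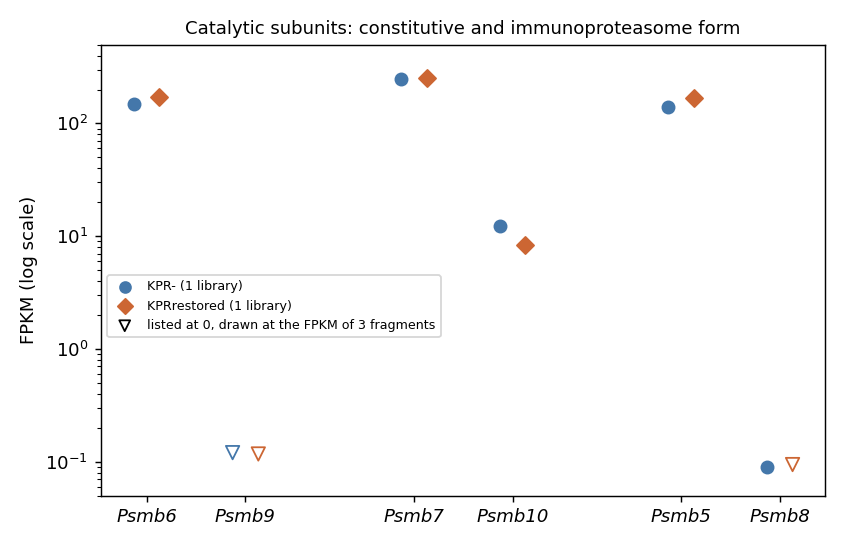
FPKM on a log scale of each catalytic beta subunit beside its immunoproteasome counterpart, as a circle for the KPR- library and a diamond for the KPRrestored library. Open triangles mark genes listed at 0, drawn at the FPKM that 3 fragments would give. Psmb5, Psmb6 and Psmb7 sit between 139 and 253 FPKM, Psmb10 at 12.3 and 8.40 FPKM, and Psmb8 and Psmb9 near 0.1 FPKM or at 0.

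The partners of the immunoproteasome in antigen presentation were at very different levels. Tap1 and Tap2, which carry its peptides into the endoplasmic reticulum, were both near 0, Tap1 with 0.0688 and 0.0668 FPKM and Tap2 with 0.1002 and 0.136 FPKM. Exons of Psmb9 and Tap1 overlap by 212 bases on opposite strands, and both genes were at or near 0. The class I heavy chain gene H2-K1 rose past the threshold, from 65.6 to 98.7 FPKM, a difference of 0.59, and H2-D1 went from 134 to 178 FPKM, a difference of 0.40. Irf1, an interferon-responsive transcription factor that acts on immunoproteasome genes, had 31.9 and 24.8 FPKM, a difference of -0.36 with an interval of -0.48 to -0.25. Tapbp, which encodes the loading chaperone tapasin, had 39.96 and 38.1 FPKM. Of the 6 expressed partner genes, 1 passed 0.5 upwards and 0 downwards, beside 12.1% and 9.29% of expressed genes, and the median was 0.044.

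The 2 tissue-specific core genes were also at or near 0. Psma8, the alpha subunit of the testis, was listed at 0 in both libraries, where 3 fragments would give 0.0928 and 0.0903 FPKM. Psmb11, the beta subunit of the thymus cortex, had 0.0113 FPKM in KPR-, about 1 fragment, and was listed at 0 in KPRrestored.

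The 19S particle had a larger median difference than the 20S core, and the ranges of both overlapped. Its 17 genes in the set had a median difference of 0.15, from -0.19 to 0.60, beside 0.071 for the core. Their summed level was 1940 FPKM in KPR- and 2136 FPKM in KPRrestored. The median was 0.060 with the length trend taken away. The 6 ATPase genes of the base, Psmc1 to Psmc6, encode the ring that unfolds the substrate. All 6 had an interval above 0, beside 34.3% of all genes with an interval, and their differences ran from 0.10 to 0.29. Psmc6 had the largest, from 88.1 to 108 FPKM, followed by Psmc2, from 118 to 140 FPKM. Psmc1 had 144 and 162 FPKM, Psmc3 150 and 167 FPKM, and Psmc4 119 and 131 FPKM. Psmc5 was the lowest of the ring in its difference, with 132 and 142 FPKM.

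The non-ATPase genes of the base went both ways. Psmd1 and Psmd2 encode the large scaffold subunits, which dock ubiquitin receptors and shuttle proteins, and both lay below 0: Psmd1 had 105 and 92.5 FPKM, a difference of -0.18, and Psmd2 had 168 and 152 FPKM, a difference of -0.15. Psmd4, which encodes a ubiquitin receptor, went from 126 to 160 FPKM, a difference of 0.35 with an interval of 0.28 to 0.42. Adrm1, the gene of another ubiquitin receptor of the base, whose symbol falls outside the pattern, went from 99.5 to 132 FPKM, a difference of 0.40 with an interval of 0.33 to 0.47. The differences of Psmd4 and Adrm1 thus lay above those of Psmd1 and Psmd2, with intervals that did not meet and that cover counting error only. The transcripts of Psmd1 and Psmd2 are 3112 and 3001 bases long, and those of Psmd4 and Adrm1 are 1332 and 1535 bases long. Longer transcripts had lower median differences among all abundant genes, and the part of length in this contrast was not tested.

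The lid holds the enzyme that strips ubiquitin from the substrate. Of the 8 lid genes in the set 7 had a difference above 0, beside 51% of expressed genes. Psmd8, a structural lid subunit, lies on chromosome 7 from 29174188 to 29180701 (minus strand), with no exon overlap with another gene and no near copy. It went from 87.0 FPKM in KPR- to 131 FPKM in KPRrestored, from about 2470 and 3837 fragments. Its difference of 0.60, with an interval of 0.52 to 0.67, was the largest of the 45 proteasome genes, and Psmd4 came next with 0.35. Psmd8 ranked as number 981 of all gene symbols by FPKM in KPR- and as number 623 in KPRrestored.

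The other lid genes stayed under the threshold. Psmd14, which encodes the deubiquitinating enzyme itself, had 120 and 140 FPKM, a difference of 0.23. Set against Psmd14, a comparison chosen after the values were seen, Psmd8 rose by 0.37 on the log2 scale, with an interval of 0.27 to 0.47. Psmd11 had 67.7 and 80.5 FPKM and Psmd12 had 95.8 and 113 FPKM, so both stood near Psmd14 in their difference. Psmd6 had 74.9 and 80.8 FPKM, while Psmd13, at 96.3 and 100 FPKM, and Psmd7, at 114 and 117 FPKM, had intervals that held 0. Psmd3 was the only lid gene of the set below 0, with 135 and 119 FPKM, a difference of -0.19 with an interval of -0.24 to -0.13. Shfm1, a further subunit gene whose symbol falls outside the pattern, had 289 and 282 FPKM. Its difference was -0.036, with an interval that held 0.

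**Figure D3:**
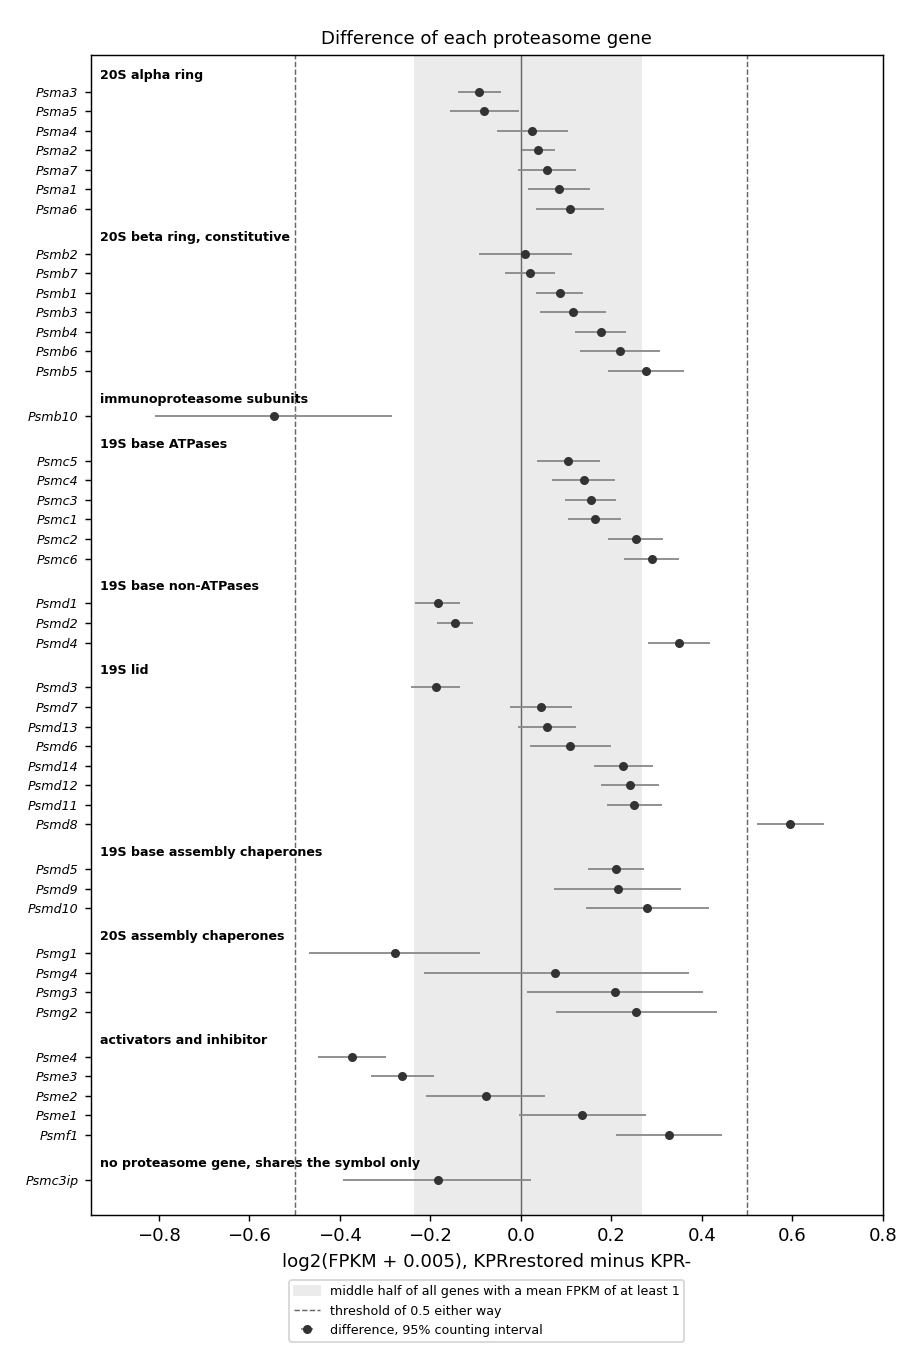
Difference of each of the 45 proteasome genes, log2(FPKM + 0.005) in KPRrestored minus KPR-, with 95% counting intervals as bars, dashed lines at 0.5 either way and a grey band over the interquartile range of all expressed genes, from -0.23 to 0.27. Psmd8 is the only point beyond the right line and Psmb10 the only point beyond the left line.

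The 7 assembly chaperone genes within the symbol pattern were far less abundant than the genes of the subunits they join. Of the 7 chaperone genes 6 had a difference above 0, beside 51% of expressed genes, and the median of the 7 was 0.21. The chaperones of the 19S base, which hold the ATPase ring until it is complete, went the same way. Psmd5 had 42.6 and 49.3 FPKM, Psmd9 had 14.8 and 17.2 FPKM, and Psmd10, known as gankyrin, had 29.9 and 36.3 FPKM, all with intervals above 0. Of the chaperones that build the 20S rings, Psmg2 went from 25.5 to 30.4 FPKM and Psmg3 from 27.4 to 31.6 FPKM, while Psmg4 had 25.1 and 26.4 FPKM with an interval that held 0. Psmg1, the obligate partner of Psmg2, was the exception, with 28.0 and 23.1 FPKM, a difference of -0.28 with an interval of -0.47 to -0.091. Pomp, the maturation factor of the 20S core, had 173 and 162 FPKM, a difference of -0.10. AI314180, the gene of the scaffold protein ECM29, which bridges the core and the cap, had 22.9 and 20.9 FPKM, a difference of -0.13. Of these 2 genes, Adrm1 and Shfm1, the 4 proteasome genes outside the symbol pattern, none passed 0.5, and their median was -0.070.

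Activator genes and the inhibitor gene lay on both sides of 0. Psme4, which encodes PA200, had 23.5 and 18.1 FPKM, a difference of -0.37 with an interval of -0.45 to -0.30. Psme3, which encodes the nuclear activator PA28 gamma, had 69.3 and 57.8 FPKM, a difference of -0.26 with an interval of -0.33 to -0.19. Psme1 and Psme2 encode the PA28 alpha and beta subunits, which form 1 ring in the cytosol: Psme1 had 40.2 and 44.2 FPKM and Psme2 had 58.6 and 55.6 FPKM, and the interval of each held 0. Psme2b is a near copy of Psme2, 99.4% identical over 794 bases, so fragments of the pair may be shared, and it had 0.617 and 0.710 FPKM, about 8 and 10 fragments. Psmf1, which encodes the inhibitor and adaptor PI31, went from 13.4 to 16.8 FPKM, a difference of 0.33 with an interval of 0.21 to 0.44. None of the 5 expressed genes of the group passed 0.5, and their median was -0.077. It was -0.15 with the length trend taken away, -0.12 at the same upper quartile and 0.029 once Psme2b was let in.

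Transcript length moved with these differences. Among all abundant genes, the median difference was 0.083 for transcripts under 1000 bases, 0.025 from 1000 to 2000 bases, -0.059 from 2000 to 3000 bases, -0.093 from 3000 to 5000 bases and -0.26 above that. Of the 33 abundant proteasome genes 26 lay above 0, beside 48.1% of the 1795 abundant genes. By 0.5 or more, 1 of the 33 was higher and 0 lower, beside 8.36% and 6.46%, and by 0.25 or more, 6 were higher and 1 lower, beside 18.4% and 22.1%. Those from 1000 to 2000 bases lay above 0 in 18 of 19 cases, with a median of 0.11, where 55.2% of the 549 genes of that length did. From 2000 to 3000 bases, 3 of 6 proteasome genes lay above 0, with Psmc6 and Psmd11 the highest and Psme3 the lowest. Of the 5 expressed proteasome genes with transcripts over 3000 bases at any level, Psmd1, Psmd2 and Psme4 lay below 0, and Psmd5 and Psmf1 above it. The part of transcript length in the differences was not tested. Psmd8 kept a difference of 0.50 once the length trend was taken away.

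**Figure D4:**
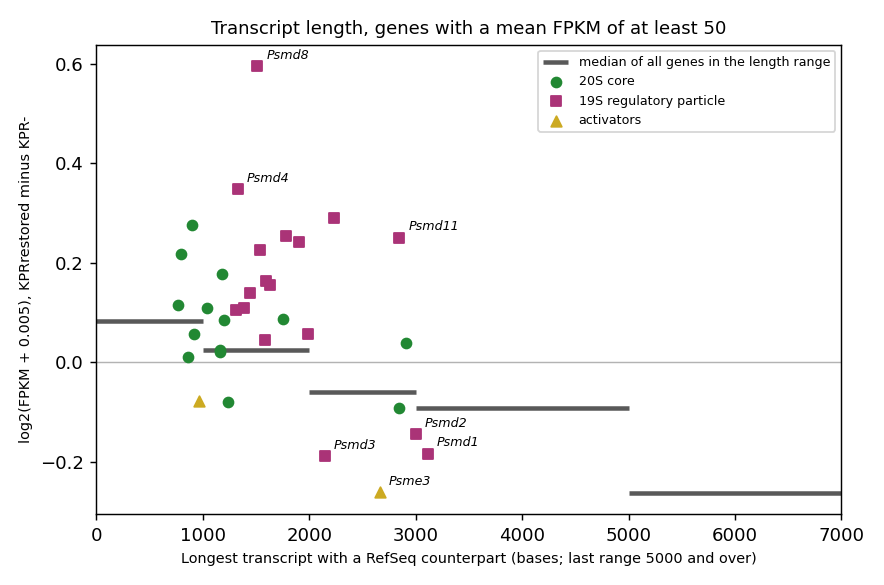
Difference, log2(FPKM + 0.005) in KPRrestored minus KPR-, against transcript length in bases for the 33 abundant proteasome genes, as circles for the 20S core, squares for the 19S particle and triangles for the activators. Horizontal bars give the median of all genes in the length range, which goes from 0.083 under 1000 bases to -0.26 at 5000 bases and over, and squares between 1000 and 2000 bases lie above the bar.

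Near-identical copies bear on some of these values. Of the 45 genes, 8 have a pseudogene transcript at least 95% identical over 100 bases or more, among them Psma3, Psma5, Psmb5, Psmc1, Psmd2 and Psmd11. Of these copies, 0 are among the gene symbols. Some fragments counted for a subunit may therefore come from its copy, and how many was not measured. Exons of 7 genes overlap a gene on the opposite strand, the largest stretch being 405 bases of Psmb7 with Nek6, which had 38.0 and 38.3 FPKM.

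The transcription factor NRF1, encoded by Nfe2l1, is held at the endoplasmic reticulum, cut free by DDI2 after deglycosylation by NGLY1, and raises proteasome genes when proteasome capacity falls short. Nfe2l1 rose from 65.3 to 116 FPKM, a difference of 0.83 with an interval of 0.78 to 0.87. Its relative Nfe2l2, which encodes NRF2, rose from 63.9 to 109 FPKM, a difference of 0.77. The small Maf genes, whose products pair with both factors on DNA, were higher too: Maff rose from 27.8 to 50.2 FPKM and Mafk from 13.7 to 19.7 FPKM, past the threshold, while Mafg had 31.7 and 38.9 FPKM, a difference of 0.29. The processing genes stayed near 0 or had wide intervals, Ddi2 with 13.6 and 13.4 FPKM and Ngly1 with 3.82 and 4.54 FPKM and an interval of -0.010 to 0.51. Nfya, Nfyb and Nfyc, which encode the CCAAT-binding factor NF-Y, had differences of -0.0033, -0.028 and -0.15. In all, 4 of the 10 genes of this list passed 0.5 upwards and 0 downwards, beside 12.1% and 9.29% of expressed genes. The median of the 10 genes was 0.27, larger than that of any proteasome group. The list was chosen with earlier results of these data known, so neither value is independent evidence.

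NRF1 and NRF2 bind antioxidant response elements, whose core is written TGACNNNGC. RefSeq gene starts on GRCm38.p6 were found for 42 of the 50 proteasome genes, and the 250 bases before each start were searched on both strands. The letters TGACNNNGC stood in 5 of the 42 genes (11.9%), beside 11.5% of 27025 genes, and the 5 were Psmb5, Psmb6, Psmc6, Psmd12 and Psmd9. Their differences ran from 0.21 to 0.29. Among the expressed proteasome genes searched that lacked the letters, differences ran from -0.55 for Psmb10 to 0.60 for Psmd8. A link between the letters and the differences was not tested. The Psmb5 stretch is shown whole because Psmb5 had the largest difference of the core, and the others are shown around the match, with the 9 letters in capitals. Coordinates are chr14:54617996-54618245 (minus strand) for Psmb5, chr11:70525323-70525356 for Psmb6, chr14:45329574-45329630 for Psmc6, chr11:107479278-107479314 for Psmd12 and chr5:123228134-123228189 for Psmd9 (plus strand).
Psmb5: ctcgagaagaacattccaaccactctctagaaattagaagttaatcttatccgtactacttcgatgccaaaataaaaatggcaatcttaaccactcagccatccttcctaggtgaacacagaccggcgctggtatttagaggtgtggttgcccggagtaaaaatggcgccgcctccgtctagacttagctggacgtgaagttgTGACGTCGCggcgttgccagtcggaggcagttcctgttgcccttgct
Psmb6: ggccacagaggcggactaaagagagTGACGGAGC
Psmc6: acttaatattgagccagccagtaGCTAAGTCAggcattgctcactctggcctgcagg
Psmd12: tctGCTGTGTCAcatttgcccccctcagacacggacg
Psmd9: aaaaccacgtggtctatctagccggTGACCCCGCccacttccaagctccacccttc
In Psmc6 and Psmd12 the match is on the opposite strand, and the capitals show its reverse complement.

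The shares of the other letter patterns lay on both sides of those in all genes. CCAAT, the NF-Y box, stood in 15 of the 42 genes (35.7%), beside 37.5% of all genes. The RUNX letters TGTGGT stood in 7 (16.7%), beside 15.9%, and TGCGGT in 4 (9.5%), beside 5.8%. Psmb10 and Psmb5 both held TGTGGT, and they had opposite differences of -0.55 and 0.28. The letters of the interferon-stimulated response element, GAAA and again GAAA after a gap of 2 bases, stood in 3 (7.1%), beside 3.5%, and the STAT letters TTCNNNGAA in 2 (4.8%), beside 8.1%. Psmb8 was 1 of these 2, and Psmb9 and Psmb10 held neither. In 16 of the 42 genes, Psmd8 among them, none of the patterns was found. The stretches of the gene with the largest and of the gene with the lowest difference are shown for comparison, with TGTGGT or its reverse complement in capitals. They lie at chr7:29180674-29180923 for Psmd8 and chr8:105938393-105938642 for Psmb10 (both minus strand).
Psmd8: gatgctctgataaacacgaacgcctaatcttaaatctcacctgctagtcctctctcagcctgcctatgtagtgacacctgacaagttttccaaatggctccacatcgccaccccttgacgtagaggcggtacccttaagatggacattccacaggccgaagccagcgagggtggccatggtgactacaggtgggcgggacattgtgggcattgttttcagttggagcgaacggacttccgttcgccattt
Psmb10: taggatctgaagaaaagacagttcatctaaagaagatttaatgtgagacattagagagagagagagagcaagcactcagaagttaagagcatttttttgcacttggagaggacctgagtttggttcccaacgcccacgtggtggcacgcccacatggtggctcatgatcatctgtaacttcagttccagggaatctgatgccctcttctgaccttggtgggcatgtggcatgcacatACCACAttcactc

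Genes that work around the proteasome included larger differences than the subunits did. Of 12 genes for deubiquitinases, ligases, shuttles and other proteins bound to it, 3 passed 0.5 upwards and 0 downwards, where 12.1% and 9.29% of expressed genes did. Zfand2a, which encodes the arsenite-inducible partner AIRAP, rose from 16.1 to 58.5 FPKM, a difference of 1.87. Zfand5, whose product stimulates the 26S particle, rose from 14.7 to 26.3 FPKM, a difference of 0.83, and Akirin2, whose product brings proteasomes into the nucleus, rose from 31.2 to 49.3 FPKM, a difference of 0.66. The other end of the list held the ligase gene Ube3c, with 30.5 and 24.7 FPKM, and the shuttle gene Ubqln4, with 53.5 and 43.4 FPKM, with differences of -0.31 and -0.30. The deubiquitinase genes Usp14 and Uchl5 had differences of 0.11 and -0.048.

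The p97 segregase and its cofactors stayed under the threshold. Vcp, which encodes p97, the ATPase that pulls substrates out of membranes and complexes, had 268 and 269 FPKM, and its cofactor gene Ubxn1 had 168 and 228 FPKM, a difference of 0.44. Of its substrate-binding partners, Ufd1l had 22.5 and 27.0 FPKM, and Nploc4 had 33.5 and 32.6 FPKM with an interval that held 0. Of the 9 genes of this list 8 had a difference above 0, beside 51% of expressed genes, and the median of the 9 was 0.13. The ubiquitin gene Ubb had 469 and 544 FPKM, a difference of 0.21. Of the activating enzyme genes, Uba1 had 238 and 249 FPKM and Uba6 had 20.3 and 16.5 FPKM, a difference of -0.30. Over all 47 expressed genes of the related lists, 8 passed 0.5 upwards (17.0%) and 0 downwards, beside 12.1% and 9.29% of expressed genes. Their median was 0.091, or 0.049 with both libraries scaled to the same upper quartile.

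**Figure D5:**
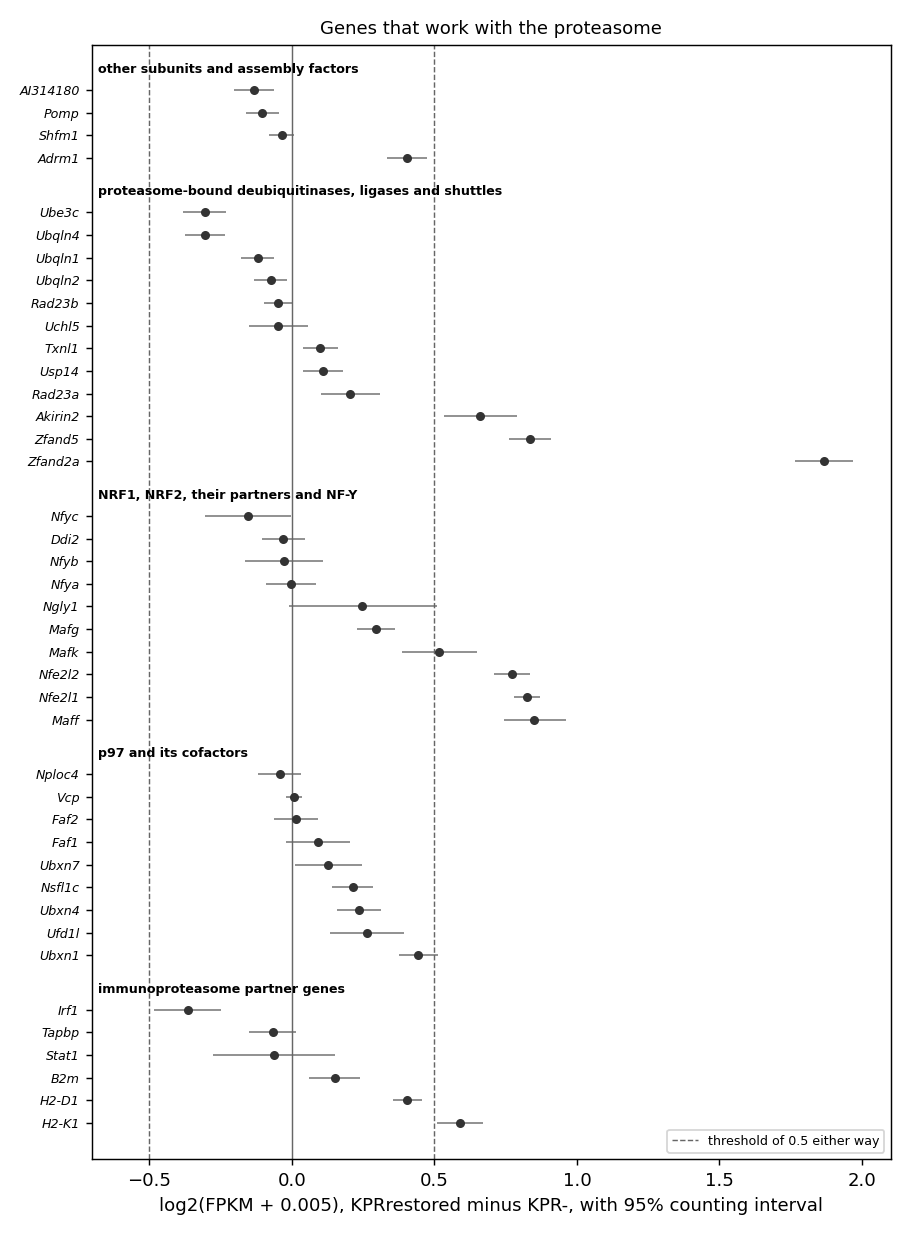
Difference, log2(FPKM + 0.005) in KPRrestored minus KPR-, of 41 expressed genes in 5 of the related lists, with 95% counting intervals as bars and dashed lines at 0.5 either way. Zfand2a is the farthest to the right at 1.87, Nfe2l1, Nfe2l2 and Maff lie between 0.77 and 0.85, and no gene lies beyond the left line.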

How the data were processed

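RNA-seq of 2 libraries was used, 1 of KPR- and 1 of KPRrestored cells, grouped by the sample records. The authors selected poly(A) RNA, made directional paired-end libraries, trimmed the reads, mapped them using TopHat (to mm10, per the submitters' processing notes) and deposited FPKM values estimated using Cufflinks. Versions, the annotation and the use of strand are not given in the sources used here. Differences were computed here as log2(FPKM + 0.005), with a threshold of 0.5 and a filter of a mean FPKM of at least 1. The added 0.005 shrinks changes of low genes. Where a gene is listed at 0 in 1 library, as Psmb8 and Psmb11 are, it sets the size of the difference.

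Of 23183 symbols, 22148 matched GENCODE M21 directly and 665 through an older symbol. The depth was fitted on 3808 genes of a single transcript length, of which 538 and 551 had 0.5 to 5.5 estimated fragments in KPR- and KPRrestored, and the estimates were whole, to a tolerance of 0.1, for 80.3% and 82.4% of these (20.0% by chance). The mean fragment length was 210 bases. Fragments per gene use the longest transcript with a RefSeq counterpart and are upper estimates where a gene has several lengths. Intervals of such genes may therefore be too narrow. The depth fit and the intervals were tested on simulated libraries.

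Every proteasome gene is named, and of each related list the 2 largest rises and falls. The other related genes named, and the pairs compared, were chosen after their values were seen. The members and lists were chosen with earlier results of these data known. Alternatives were other pseudocounts, filters, scalings and thresholds, and removal of the length trend in 20 bins. Paaf1 and the proteins' sequences were not analysed here. Some genes that the naming rule covers are not reported here, and the ubiquitin list was not drawn. Scripts ran in Python 3.11.15 using scipy 1.17.1, pandas 2.3.3, numpy 2.4.6 and matplotlib 3.10.9, and near copies were searched using blastn 2.17.0.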

Additional observations from a re-analysis of the deposited data

How the results depend on the processing

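Each result was recomputed under up to 11 settings, 101 values in all, of which 81 moved by less than the counting error of the fragments behind them (for counts of genes, stayed within 1.5 times). Scaling to the same upper quartile gave medians of 0.067 for all proteasome genes, 0.029 for the 20S core, 0.11 for the 19S particle, -0.12 for the activators and inhibitor and 0.049 for the related lists. With the transcript length trend taken away these were 0.019, -0.0037, 0.060, -0.15 and 0.11, that of the assembly chaperones was 0.14, and the difference of Psmd8 was 0.50. The 20S core thus changed sign. Without the filter on mean FPKM, the median of the activators and inhibitor changed sign to 0.029, since Psme2b entered with about 8 and 10 fragments, that of the immunoproteasome genes was -2.40, set by the pseudocount for Psmb8, and 3 genes were lower by 0.5 or more. A threshold of 0.25 gave 9 higher and 4 lower proteasome genes, beside 26.2% and 23.7% of all genes, and a threshold of 1 gave 0 and 0. With a pseudocount of 1, 0 genes were lower by 0.5 or more. The shares of all genes past the threshold were not computed without the filter, at a threshold of 1 or with a pseudocount of 1. The count of genes above 0, added after the values were seen, ran from 25 to 35. No paired analysis was possible because each condition has 1 library, and no replicate could be left out. Depth limits the statements on Psma8, Psmb8, Psmb9, Psmb11 and Psme2b.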

Other observations

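The subunits of the 20S core are built into the particle in equal numbers, and their transcript levels per length were not equal. In KPR- the most abundant of the 14 genes, Psma7, stood 2.37-fold above the least abundant, Psmb2. Among the 17 genes of the 19S particle in the set, the factor between Psmd2 and Psmd11 was 2.49. Shfm1, a subunit gene outside the symbol pattern, stood higher than these, at 289 FPKM in KPR-. The 4 chaperones of the 20S core within the pattern, Psmg1 to Psmg4, which work in pairs, lay within a factor of 1.11 in KPR-. The order of levels was much the same in both libraries. Over the 45 expressed proteasome genes Spearman's rho between the FPKM of KPR- and KPRrestored was 0.97, a description across genes that share their libraries and the scaling to transcript length, and that are not independent replicates.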
